A study of Mus musculus with 6 samples.

Results

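Antiviral interferon-stimulated genes, without the Ifit family and the interferon-induced GTPases, are described here in newborn mouse intestine. The members are 34 genes chosen by name among the 54532 genes of the tables, with earlier results of these data known. All 34 were found. Newborn C57BL/6 mice, an inbred strain, were the source of all 6 libraries. The bowel had been exposed for 5 days to NECA, an adenosine analogue that stimulates adenosine receptors, or to its solvent DMSO as the control, in 3 libraries each. Neither the bowel segment nor the route is named in the labels. Whether each library stands for its own animal is not stated, so p-values cover the spread between libraries, which may be technical.

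Interferons are secreted proteins that signal through receptors of the JAK and STAT pathway. Type I and type III interferons act through the complex ISGF3, which holds STAT2 and IRF9 and binds the interferon-stimulated response element (ISRE) in promoters, whereas interferon gamma acts at the gamma-activated site (GAS). The induced proteins sense viral RNA, degrade it, block translation or trap virus particles, and several of them sustain or restrain the pathway itself. In the bowel of adult mice, epithelial cells are known to respond mainly to type III interferon and leukocytes mainly to type I. This division may not hold in newborn bowel.

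The promoters of 6 members are printed because ISRE and GAS letters are a feature of these genes that does not depend on their levels. Each line gives the 250 bases before the gene's start, 5′ to 3′ on the gene's strand, from RefSeq on GRCm38.p6. The ISRE core searched was GAAA, 2 bases of any kind and GAAA again, and the GAS core was TTC, 3 bases of any kind and GAA, each on both strands. Capitals mark these cores. In Ifi44, whose window held neither, capitals mark overlapping matches to a longer ISRE form of 12 letters, the core followed by CT, with 1 letter different.
Isg15 (chr4:156200819-156201068, - strand): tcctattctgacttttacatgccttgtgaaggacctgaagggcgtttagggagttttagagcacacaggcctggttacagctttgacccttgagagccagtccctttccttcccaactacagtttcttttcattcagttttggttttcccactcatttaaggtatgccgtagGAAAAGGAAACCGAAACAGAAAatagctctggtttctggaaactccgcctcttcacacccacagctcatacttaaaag
Oas3 (chr5:120777660-120777909, - strand): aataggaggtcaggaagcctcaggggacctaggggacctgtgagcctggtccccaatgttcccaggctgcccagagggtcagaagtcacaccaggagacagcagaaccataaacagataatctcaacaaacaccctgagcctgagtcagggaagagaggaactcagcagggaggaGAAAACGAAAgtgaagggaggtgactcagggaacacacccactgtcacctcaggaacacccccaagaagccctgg
Rsad2 (chr12:26456453-26456702, - strand): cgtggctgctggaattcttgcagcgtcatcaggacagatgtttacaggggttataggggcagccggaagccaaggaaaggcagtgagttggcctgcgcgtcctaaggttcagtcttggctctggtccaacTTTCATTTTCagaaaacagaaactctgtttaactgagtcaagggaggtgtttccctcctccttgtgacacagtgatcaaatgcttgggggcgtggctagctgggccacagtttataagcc
Bst2 (chr8:71537473-71537722, - strand): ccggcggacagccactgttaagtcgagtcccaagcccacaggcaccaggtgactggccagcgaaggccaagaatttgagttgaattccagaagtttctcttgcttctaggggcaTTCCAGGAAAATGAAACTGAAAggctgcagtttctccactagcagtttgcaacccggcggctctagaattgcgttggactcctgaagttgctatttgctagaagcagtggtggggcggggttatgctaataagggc
Irf1 (chr11:53769764-53770013, + strand): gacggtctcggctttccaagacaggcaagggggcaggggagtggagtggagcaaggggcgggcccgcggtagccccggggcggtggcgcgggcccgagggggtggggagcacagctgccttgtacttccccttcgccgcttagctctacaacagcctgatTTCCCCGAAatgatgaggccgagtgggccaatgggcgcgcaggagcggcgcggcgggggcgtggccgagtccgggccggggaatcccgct
Ifi44 (chr3:151749911-151750160, - strand): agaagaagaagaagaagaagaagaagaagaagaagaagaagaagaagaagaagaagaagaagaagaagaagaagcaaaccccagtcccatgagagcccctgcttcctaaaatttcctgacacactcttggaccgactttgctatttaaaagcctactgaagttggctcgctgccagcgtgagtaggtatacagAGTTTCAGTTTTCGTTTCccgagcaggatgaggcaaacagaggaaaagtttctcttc

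In Isg15 the ISRE core occurred 3 times in overlapping register, and in Bst2 it occurred 2 times and overlapped the GAS core. RefSeq windows of 300 bases (250 before and 50 after the start) were found for 23 of the 34 members, 25 windows in all. The ISRE core was in 9 of them (36.0%), against 3.44% of all 32851 windows. The GAS core was in 5 (20.0%), against 8.30% of all windows. The longer form, with up to 1 letter different, was in 13 (52.0%), against 3.71%. Of the members with a window, the ISRE core was found in 2 of the 9 whose NECA and DMSO levels did not overlap and in 7 of the other 14.

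Total counts ran from 15531996 to 18065078 per library. NECA replicate 2 stood apart, with a median correlation across genes of 0.944 with the other libraries, against 0.971 to 0.986 for the rest. Its 7 suckling enterocyte markers summed to 8164 CPM (counts scaled to library size), against 41848 to 51138 CPM in the other 5 libraries. Its 5 ileal markers summed to 2384 CPM, against 30.3, 32.7 and 260 CPM in DMSO replicates 1, 2 and 3. In NECA replicates 1 and 3 they summed to 91.2 and 347 CPM. With all 6 libraries, the 5 markers of the proximal small bowel were all lower in NECA, 1 of them, Pdx1, without overlap. The median of their log2 fold changes moved from -0.68 to -0.12 without NECA replicate 2, where 4 were lower and 1 higher. They summed to 152 CPM in NECA replicate 2, against 4642 to 5161 CPM in the other libraries. Pdx1 had 282, 163 and 37 counts in DMSO libraries and 29, 4 and 11 in NECA libraries. Markers of bowel position thus differed among the other libraries too. Results that rest on NECA replicate 2 are given with and without it.

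Most members were lower in the NECA group, by small amounts. With 6 libraries 27 of the 34 were lower and 7 were higher, against 51.0% of 15847 tested genes lower. The members were chosen with earlier results of these data known and are read in the same 6 libraries. Counts of members are therefore descriptions, not independent observations or tests. The median log2 fold change of NECA over DMSO was -0.28, against -0.01 for all tested genes. In 12 members every NECA library lay below every DMSO library, against 7.16% of genes, and in 0 did every NECA library lie above, against 6.49%. By edgeR's quasi-likelihood test with Benjamini-Hochberg adjustment 0 members passed, where 0.0% of genes passed in either direction, and each adjusted p was 0.738 or more. An unadjusted p under 0.05 was reached by 7 members, all lower, against 3.03% of genes lower and 2.45% higher. DESeq2 called 1 member, Ifi44, where it called 0.0505% of genes lower and 0.0189% higher. On simulated counts DESeq2 made 54 false calls and edgeR 10, and edgeR found 15.5% of 2-fold changes.

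**Figure D1:**
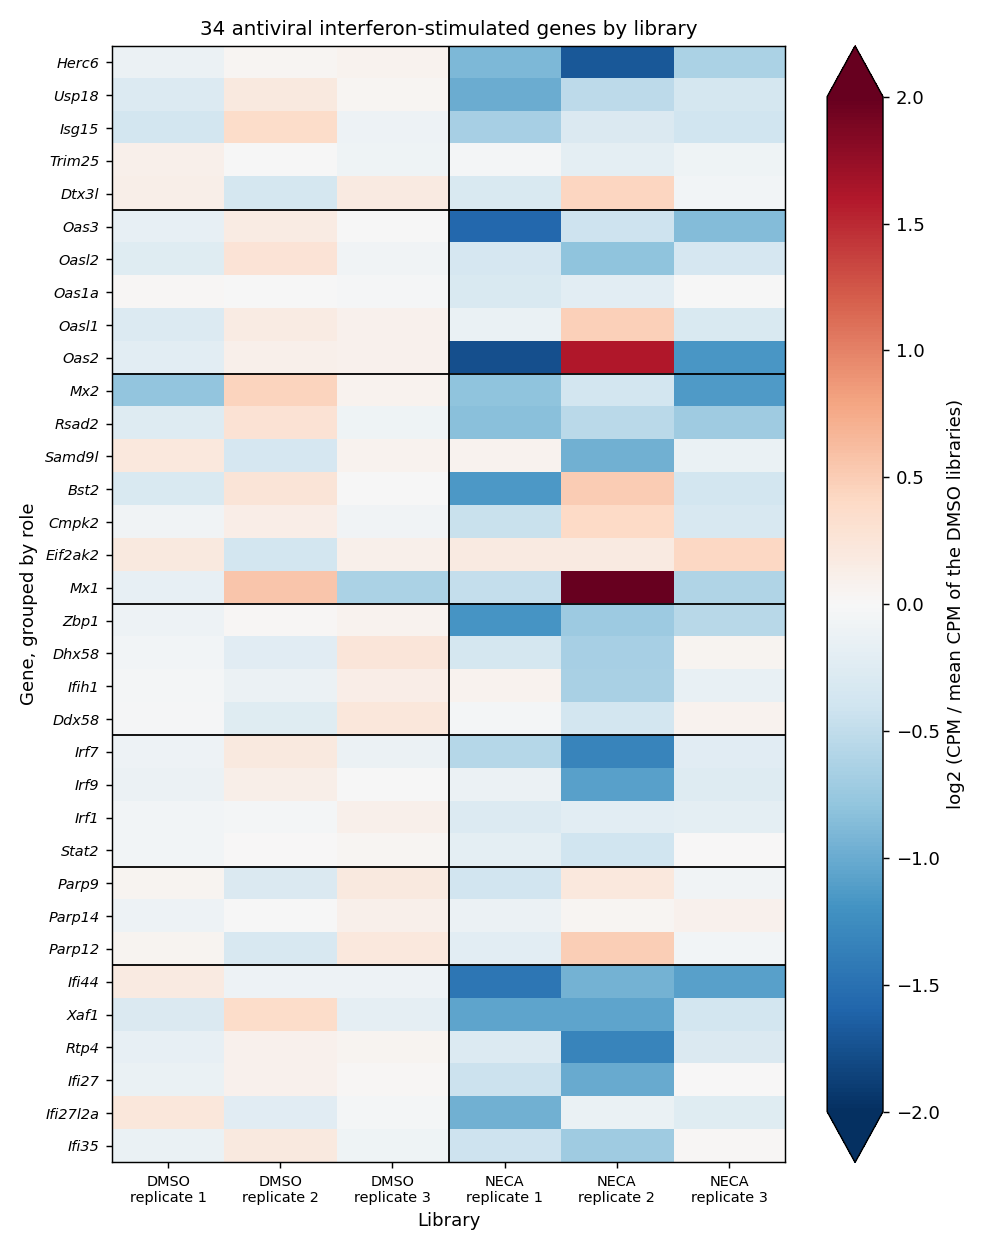
Log2 ratio of each member's TMM-normalised CPM to its mean over the DMSO libraries (colour), for 34 genes (vertical, grouped by role) in 6 libraries (horizontal). Of the 34 members, 31, 24 and 27 lie below the DMSO mean in NECA replicates 1, 2 and 3. In DMSO replicates 1, 2 and 3 the numbers are 25, 14 and 15, so DMSO replicate 1 is near the NECA libraries by this count. By size it is nearer the DMSO mean, with a median ratio of 0.930, against 0.758, 0.763 and 0.839 in NECA replicates 1, 2 and 3.

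Levels of different genes were compared as FPKM, which divides by transcript length. In DMSO the members ranged from 0.484 FPKM for Oas2 to 163 FPKM for Isg15. Irf7 at 87.2 FPKM and Bst2 at 77.9 FPKM followed, so that a modifier protein, a transcription factor and a membrane tether had the most RNA. Mx1 at 0.654 FPKM and Mx2 at 2.25 FPKM stood near the low end.

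Transcription factors of the pathway were lower in NECA in all 4 cases, without overlap in 3 of them. In this and the following paragraphs brackets give the log2 fold change of NECA over DMSO from edgeR with a standard error (SE). The SE, also used in the figures, was derived from the fold change and the F statistic of the quasi-likelihood test. Levels are TMM-normalised CPM in replicates 1, 2 and 3. Irf7, which amplifies type I interferon production, had DMSO levels of 311, 384 and 306 CPM and NECA levels of 225, 134 and 284 CPM. NECA replicate 2 was the lowest, and the log2 fold change was smaller without it (-0.64, SE 0.28 with 6 libraries; -0.39, SE 0.17 without it). Irf9, the DNA-binding subunit of ISGF3, had DMSO levels of 101.4, 118.5 and 109.6 CPM and NECA levels of 101.2, 51.9 and 91.6 CPM (-0.43, SE 0.24; -0.18, SE 0.13 without NECA replicate 2). The nearest libraries of Irf9 were almost level, and with DESeq2 size factors its groups overlapped. Irf1, an interferon-induced activator, had 173, 174 and 192 CPM against 148, 155 and 156 CPM (-0.23, SE 0.14), a small difference between tight groups that overlapped when scaled by library totals. Stat2, a subunit of ISGF3, averaged 86.2 ± 2.80 CPM with DMSO and 75.6 ± 10.7 CPM with NECA (mean ± SD, n = 3 each, here and for the averages that follow), with overlapping groups (-0.19, SE 0.14; -0.09, SE 0.13 without NECA replicate 2). Exons of Irf7 overlap Phrf1 on the opposite strand and exons of Irf9 overlap Rnf31, so shared reads may belong to either gene.

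Of the ubiquitin-like modifier system, 4 of 5 members were lower. Isg15 (ENSMUSG00000035692, chromosome 4, 156199424 to 156200818, GRCm38), the modifier joined to viral and host proteins, had DMSO levels of 96.6, 161 and 116 CPM and NECA levels of 78.9, 102 and 94.5 CPM. NECA replicate 2 lay above DMSO replicate 1, so the groups overlapped (-0.44, SE 0.21). Without NECA replicate 2 they did not (-0.52, SE 0.22), and leaving out DMSO replicate 2, the highest library, gave a log2 fold change of -0.21. Herc6, the ligase that joins Isg15 to its targets in mice, had 40.5, 45.3 and 46.0 CPM against 23.5, 13.6 and 28.2 CPM (-1.01, SE 0.26). Its groups were well apart, with NECA replicate 2 the lowest. Usp18, the protease that removes Isg15 and restrains the type I receptor, had 24.4, 33.5 and 30.3 CPM against 14.7, 20.5 and 23.1 CPM, a narrow gap (-0.60, SE 0.21). Trim25, a ubiquitin ligase that assists RNA sensing, averaged 189.7 ± 12.4 CPM with DMSO and 177 ± 9.71 CPM with NECA (-0.10, SE 0.15; -0.06, SE 0.13 without NECA replicate 2). Dtx3l, a ubiquitin ligase that partners Parp9, averaged 64.4 ± 12.0 CPM and 67.0 ± 17.6 CPM (0.06, SE 0.23; -0.17, SE 0.19 without that library).

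Genes of the 2′-5′ oligoadenylate synthetase family, some of whose products activate the RNA-cleaving enzyme RNase L, differed among themselves. Oas3 had DMSO levels of 21.0, 26.4 and 23.4 CPM and NECA levels of 7.95, 17.7 and 13.0 CPM, with every NECA library lower (-0.87, SE 0.28). Oasl2, a related gene, had 183, 261 and 207 CPM against 172, 125 and 173 CPM, also without overlap (-0.47, SE 0.21). Oas2 was the scarcest member, with 34, 35 and 37 counts in DMSO libraries and 10, 133 and 17 in NECA libraries. NECA replicate 2 of Oas2 lay above all DMSO libraries and the other NECA libraries below them, so the fold change turned sign without it (0.35, SE 0.79; -1.41, SE 0.40 without it). Oas1a averaged 71.4 ± 1.11 CPM with DMSO and 63.5 ± 6.53 CPM with NECA (-0.17, SE 0.13), and belongs to a cluster of closely similar genes, so its count is uncertain. Oasl1 averaged 89.7 ± 13.9 CPM and 93.0 ± 27.5 CPM (0.05, SE 0.23; -0.21, SE 0.16 without NECA replicate 2). Oas2 and Oas3 lie 3245 bases apart on chromosome 5.

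**Figure D2:**
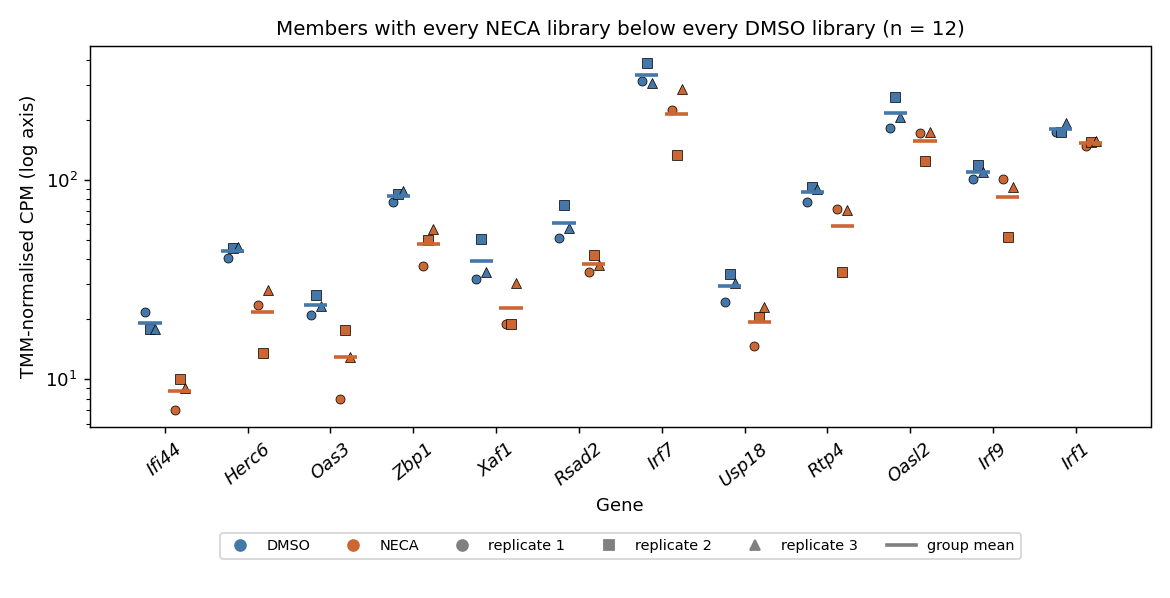
TMM-normalised CPM (log axis) of the 12 members in which every NECA library lay below every DMSO library, with the 3 libraries of each group as points and the group mean as a bar. In Ifi44 the NECA libraries lie at 7.04, 10.0 and 9.07 CPM, under DMSO libraries at 21.8, 17.9 and 17.9 CPM.

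Among restriction and effector genes, Rsad2 was lower without overlap and its neighbour Cmpk2 overlapped. Rsad2, which encodes viperin, an enzyme that makes a chain-terminating nucleotide, had DMSO levels of 51.2, 74.5 and 57.5 CPM and NECA levels of 34.4, 41.9 and 37.5 CPM (-0.69, SE 0.18). Cmpk2, a mitochondrial nucleotide kinase, had 79.3, 91.3 and 79.5 CPM against 60.9, 110.2 and 66.6 CPM (-0.07, SE 0.23; -0.38, SE 0.13 without NECA replicate 2, its highest library). The genes start 12752 bases apart on chromosome 12 and run in opposite directions. The log2 ratio of Rsad2 to Cmpk2 levels was -0.63, -0.29 and -0.47 across DMSO and -0.83, -1.39 and -0.83 across NECA, lower in every NECA library.

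Bst2, the tether of budding virus known as tetherin, had DMSO levels of 57.9, 85.5 and 70.6 CPM and NECA levels of 32.1, 102 and 55.5 CPM. NECA replicate 2 was its highest library and NECA replicate 1 its lowest, and the fold change grew without the former (-0.18, SE 0.38; -0.70, SE 0.25 without NECA replicate 2). Mx1 encodes an influenza-restricting protein, and its gene lacks coding exons in C57BL/6 mice. It had 40, 55 and 26 counts in DMSO libraries and 28, 223 and 29 in NECA libraries. A single library carried the higher NECA mean of Mx1 (0.97, SE 0.76; -0.52, SE 0.42 without it). Mx2 averaged 8.27 ± 3.28 CPM with DMSO and 4.96 ± 1.31 CPM with NECA (-0.73, SE 0.36). Eif2ak2, which encodes the RNA-activated kinase PKR, averaged 56.3 ± 10.9 CPM and 67.4 ± 6.78 CPM and was higher in NECA in both fits, with overlapping groups (0.26, SE 0.18; 0.30, SE 0.19). Samd9l averaged 105 ± 19.3 CPM and 86.5 ± 29.5 CPM (-0.28, SE 0.28; -0.02, SE 0.18 without NECA replicate 2).

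Of the nucleic acid sensors, Zbp1 had groups apart and the 3 RNA helicases had overlapping groups. Zbp1, which binds Z-form nucleic acid, had DMSO levels of 77.6, 84.6 and 87.9 CPM and NECA levels of 36.8, 50.2 and 56.5 CPM, a wide gap (-0.80, SE 0.18; -0.83, SE 0.19 without NECA replicate 2). Ddx58, which encodes RIG-I, averaged 91.7 ± 15.2 CPM and 85.5 ± 13.1 CPM (-0.10, SE 0.18; 0.02, SE 0.16 without that library). Ifih1, which encodes MDA5, averaged 76.6 ± 7.02 CPM and 66.3 ± 16.1 CPM (-0.21, SE 0.20; -0.03, SE 0.14). Dhx58, which encodes the regulator LGP2, averaged 34.8 ± 5.95 CPM and 28.4 ± 7.17 CPM (-0.29, SE 0.22; -0.13, SE 0.19).

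The 3 ADP-ribosyltransferase genes had similar means in both groups. Parp14 averaged 118 ± 8.29 CPM with DMSO and 118 ± 8.16 CPM with NECA (0.01, SE 0.14). Parp9 averaged 111 ± 18.7 CPM and 107 ± 21.6 CPM (-0.06, SE 0.20; -0.22, SE 0.18 without NECA replicate 2), and Parp12 95.5 ± 17.1 CPM and 103 ± 27.4 CPM (0.11, SE 0.22; -0.12, SE 0.18). In Parp9 and Parp12, as in Dtx3l, NECA replicate 2 was the highest of the 6 libraries. Parp9 and Dtx3l overlap on opposite strands of chromosome 16, and with the strand setting unknown their shared reads cannot be told apart.

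The members of other or unclear role were lower in all 6 cases. Ifi44 (ENSMUSG00000028037, chromosome 3, 151730922 to 151749960, GRCm38) had DMSO levels of 21.8, 17.9 and 17.9 CPM and NECA levels of 7.04, 10.0 and 9.07 CPM. Its groups were well apart (-1.14, SE 0.20; edgeR adjusted p = 0.738, DESeq2 adjusted p = 0.00496). Xaf1, a partner of the apoptosis inhibitor XIAP, had 31.9, 50.7 and 34.7 CPM against 18.9, 18.9 and 30.3 CPM, a narrow gap (-0.79, SE 0.26). Rtp4, a receptor chaperone, had 77.1, 92.2 and 90.1 CPM against 71.5, 34.4 and 71.0 CPM (-0.55, SE 0.27; -0.28, SE 0.13 without NECA replicate 2). Overlapping groups were found for Ifi27 (-0.41, SE 0.24; -0.19, SE 0.16 without that library), Ifi35 (-0.33, SE 0.21; -0.17, SE 0.17) and Ifi27l2a (-0.40, SE 0.25; -0.55, SE 0.26).

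Without NECA replicate 2 the direction was more uniform and the size stayed small. Lower levels were found in 32 of the 34 members, against 52.6% of 16121 genes, with a median of -0.26 against -0.02 for all genes. The groups did not overlap in 18 members, all lower, against 12.0% of genes lower and 11.4% higher. With edgeR 0 members passed after adjustment (0.0% of genes), and 12 had an unadjusted p under 0.05, all lower, against 3.16% of genes lower and 2.33% higher. DESeq2 called 3 members, all lower, against 0.136% of genes lower and 0.0496% higher. They were Ifi44 (-1.25, SE 0.21; DESeq2 adjusted p = 0.000534), Oas3 (-1.17, SE 0.24; DESeq2 adjusted p = 0.0115) and Herc6 (-0.76, SE 0.15; DESeq2 adjusted p = 0.0211), with fold changes from edgeR.

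**Figure D3:**
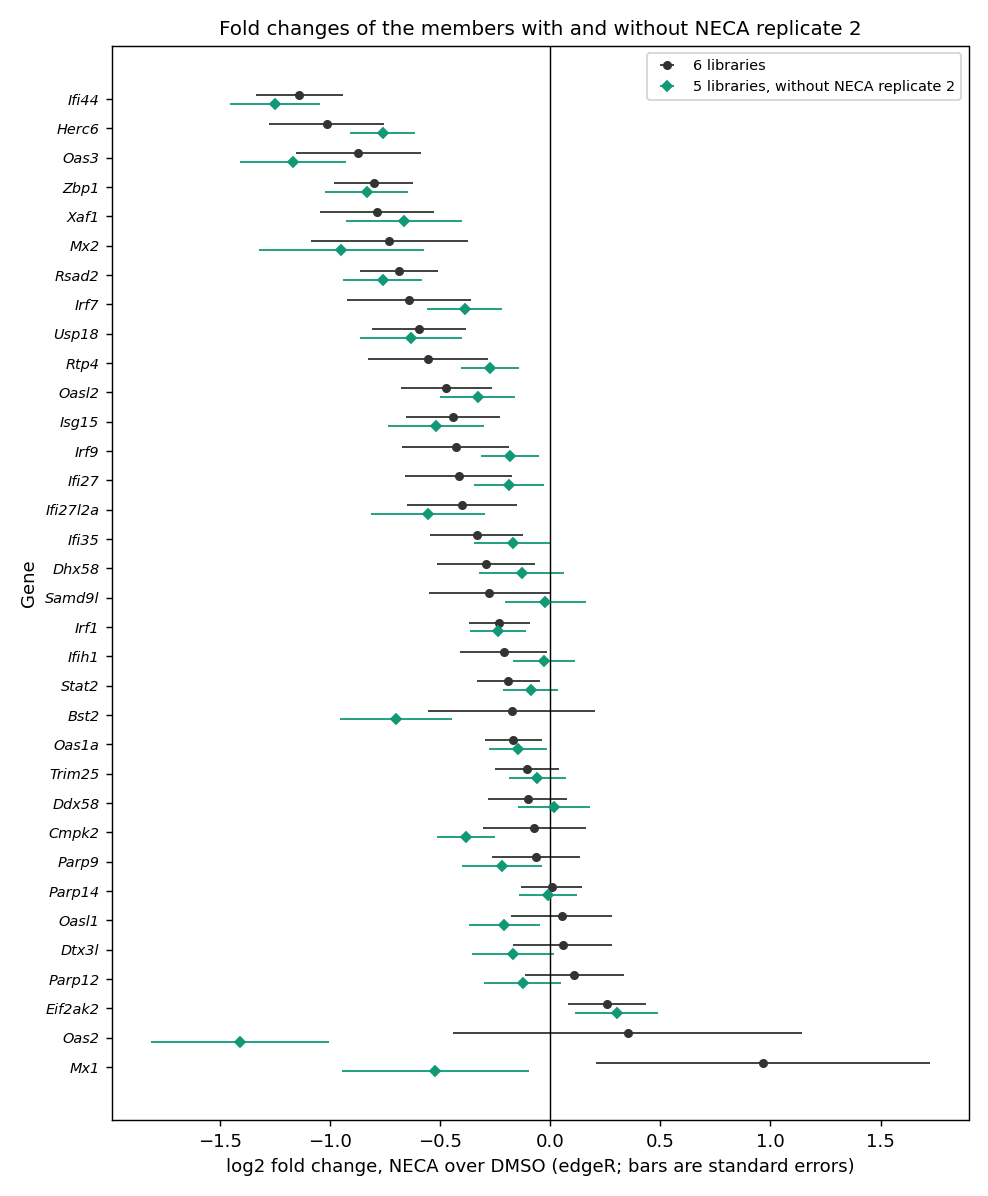
Log2 fold change of NECA over DMSO (horizontal; bars are standard errors) for each of the 34 members (vertical), with all 6 libraries (circles) and without NECA replicate 2 (diamonds). Oas2 goes from 0.35 to -1.41 and Mx1 from 0.97 to -0.52, whereas Ifi44 goes from -1.14 to -1.25.

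NECA replicate 2 lay on either side of the other NECA libraries among the members, in shares near those of all tested genes. It was above both in 14 members (41.2%, against 43.5% of genes), below both in 14 (41.2%, against 38.8%) and between them in 6 (17.6%, against 17.7%). Oas2, Bst2 and Cmpk2 were below all DMSO libraries in NECA replicates 1 and 3 and above all of them in NECA replicate 2, a pattern of 2.23% of all genes. In 13 members NECA replicate 2 was the lowest of the 6 libraries, against 27.9% of all genes, among them all 3 RNA helicases and, of the transcription factors, Irf7, Irf9 and Stat2. By role, the median level in NECA replicate 2 relative to the DMSO mean was 1.15 for the 3 ADP-ribosyltransferases. It was 1.13 for the 7 restriction and effector genes, 3 of which lay below the DMSO mean. The 5 oligoadenylate synthetase genes had 0.867 and the 5 genes of the ubiquitin-like modifier system 0.819. The 4 sensors had 0.633, the 4 transcription factors 0.614 and the 6 genes of other role 0.511. In NECA replicate 1 these medians were 0.866, 0.72, 0.791, 0.633, 0.879, 0.848 and 0.631, below the DMSO mean in each role. In NECA replicate 3 they ran from 0.778 to 0.970. NECA replicate 1 was the lowest library in 15 members, against 13.7% of all genes.

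**Figure D4:**
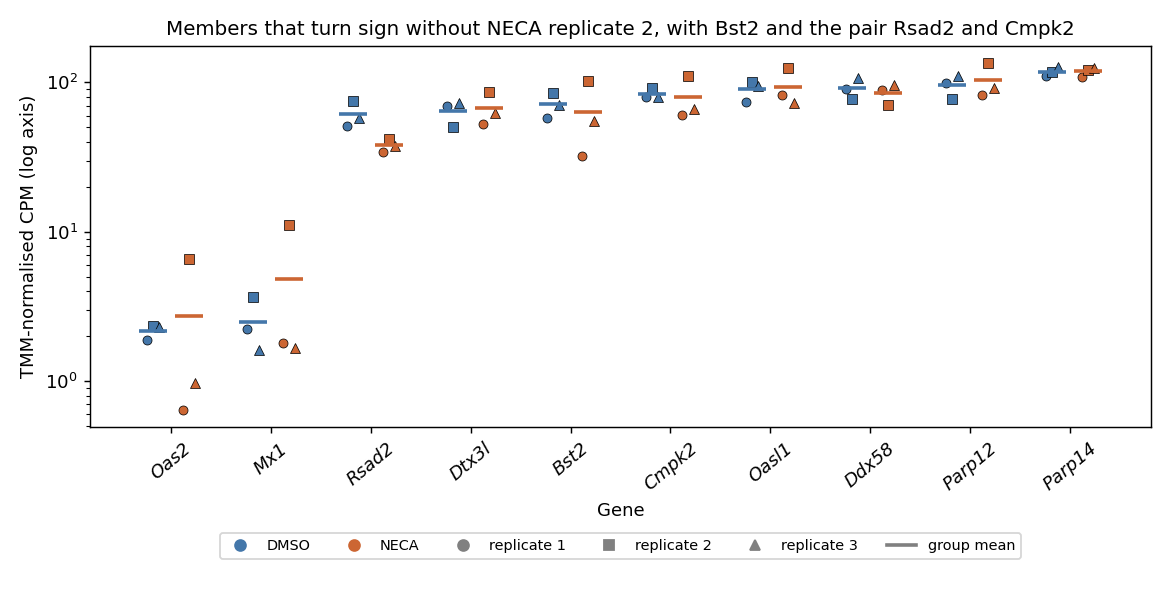
TMM-normalised CPM (log axis) by library for the 7 members whose fold change turns sign without NECA replicate 2, with Bst2, Cmpk2 and Rsad2 beside them. NECA replicate 2 is the highest library in each of these other than Ddx58, Parp14 and Rsad2, and in Mx1 it reaches 11.1 CPM.

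Upstream of the members, RNA of the interferons was scarce and that of their receptors was measurable. Of 21 interferon genes 16 had 0 counts in all 6 libraries, among them Ifnb1, and a count of 0 allows up to 0.166 to 0.193 CPM before TMM scaling in a library, for counting error only. Ifng reached the largest count of any ligand, with 6, 0 and 4 counts in DMSO libraries and 0, 5 and 0 in NECA libraries. Of the 6 receptor subunits 3 were lower and 3 higher, and edgeR and DESeq2 each called 0, with 0 at an unadjusted p under 0.05. Ifnlr1, specific to type III interferon, averaged 30.8 ± 2.69 CPM with DMSO and 32.0 ± 11.2 CPM with NECA, and Ifnar1, of the type I receptor, 80.9 ± 6.04 CPM and 86.4 ± 16.4 CPM. Without NECA replicate 2 all 6 subunits were higher in NECA, where 52.6% of all tested genes were lower. Their median log2 fold change was 0.13, from 0.0018 for Il10rb to 0.30 for Ifnlr1. The smallest unadjusted p of edgeR among them was 0.0888, for Ifnar1.

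Of 70 tested pathway genes outside the members, edgeR and DESeq2 each called 0, and by edgeR 5 were lower and 2 higher at an unadjusted p under 0.05. Other interferon-stimulated genes were lower in 31 of 41 tested cases, with a median of -0.21. Trim30a, of the tripartite motif family, had DMSO levels of 43.1, 60.6 and 47.4 CPM and NECA levels of 22.3, 18.8 and 34.2 CPM (-1.0, SE 0.25). Further genes with lower and separate groups were Gm12250 (-0.70, SE 0.24), Sp100 (-0.71, SE 0.26), Oas1g (-0.62, SE 0.23), Irf2 (-0.38, SE 0.15) and Ddx60 (-0.72, SE 0.34; -0.39, SE 0.14 without NECA replicate 2). Without NECA replicate 2, DESeq2 called Sp100, a nuclear body protein (-1.01, SE 0.20 in edgeR; DESeq2 adjusted p = 0.0272). Plscr1, a phospholipid scramblase, averaged 54.4 ± 16.0 CPM with DMSO and 91.1 ± 16.3 CPM with NECA (0.74, SE 0.24), and Socs3, an inhibitor of JAK signalling, 27.2 ± 4.68 CPM and 38.1 ± 1.96 CPM (0.48, SE 0.16).

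Cell type markers differed between the libraries as well. The 10 epithelial markers, which check the tissue label, summed to 6082 to 8399 CPM in DMSO and 7902 to 11391 CPM in NECA, with NECA replicate 2 the highest. With all 6 libraries 0 of these 10 were lower in NECA, and without NECA replicate 2 there were 2. Of 6 general leukocyte markers 5 were lower in NECA, and 4 had groups that did not overlap, against 7.16% of genes lower without overlap. Coro1a was lower with overlapping groups (-0.15, SE 0.22), and Lcp1 was higher (0.29, SE 0.19). Ptprc, the gene for CD45, had 33.8, 24.0 and 27.1 CPM against 14.5, 17.7 and 16.0 CPM. The leukocyte sum ran over 194 to 214 CPM in DMSO and 156 to 206 CPM in NECA. Of 8 macrophage markers 8 were lower with all libraries, 3 of them without overlap, and 7 were lower without NECA replicate 2. Their sums were 528 to 674 CPM against 279.8 to 624 CPM, with NECA replicate 2 the lowest, and Csf1r, the largest part of the sum, had 292, 338 and 382 CPM against 455, 109.6 and 374 CPM. The 6 B cell markers, all lower and 2 of them without overlap, summed to 19.7 to 73.2 CPM against 8.66 to 18.5 CPM. Of 5 markers of plasmacytoid dendritic cells, which are known for making type I interferon, 4 were tested, and 2 were lower and 2 higher, with sums of 5.75 to 33.5 CPM against 8.09 to 26.6 CPM. Klk1 made up most of the 2 largest sums, with 27.8 CPM in DMSO replicate 1 and 21.5 CPM in NECA replicate 2. Siglech, 1 of the higher, had 27, 2 and 9 counts against 3, 27 and 12. Lower levels were not confined to immune lists. All 6 endothelial markers were lower, 1 of them without overlap, and all 6 smooth muscle markers, 0 of them without overlap (median log2 fold changes -0.23 and -0.49). Without NECA replicate 2 only 3 endothelial markers were lower (median -0.0013), whereas all 6 smooth muscle markers still were (median -0.43). Of the T, NK and innate lymphoid markers 5 were tested and 5 were lower, 0 without overlap. Of 3 tested neutrophil markers 1 was lower. Of these lists 0 markers were at 0 in all libraries. Fewer cells of a type and less RNA per cell cannot be told apart in bulk tissue, and the part of these markers, or of bowel position, in the members' levels was not tested.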

How the data were processed

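RNA of newborn mouse intestine was measured in 3 NECA and 3 DMSO libraries. The authors deposited a raw count and an FPKM value for every gene and library, per the file headers. Per the submitters' processing notes, HISAT, StringTie, edgeR, mm10 and GRCm38 were used. For versions and strand setting, nothing is given in the sources used here. The cDNA was amplified by PCR without molecular identifiers, so intervals from counts cover counting error only.

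Low genes were removed with filterByExpr (edgeR 4.0.16, R 4.3.3; minimum count 10, minimum total 15). The 15847 remaining genes, all 34 members among them, were TMM-scaled and compared between NECA and DMSO by the two-sided quasi-likelihood test of edgeR, with Benjamini-Hochberg adjustment over all of them and a threshold of 0.05. CPM values are TMM-normalised, and FPKM served only to compare genes. Alternatives were DESeq2 1.42.0, limma 3.58.1 voom with library weights, other scalings and filters, a replicate block and each library left out. DESeq2 without NECA replicate 2 and the longer promoter motif were added after seeing the data. The script was also tested on simulated counts for 6 libraries and 15611 genes. There edgeR found 15.5% of 2-fold and 85.7% of 4-fold changes, with 10 false calls. DESeq2 found 41.2% and 92.9%, with 54 false calls. Most simulated 2-fold changes were thus missed by edgeR, and calls by DESeq2 alone are taken as less certain. The simulation held no library that stands apart as NECA replicate 2 does. It therefore does not give the rate of missed or false calls in these libraries.

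Values in every library are given for members whose groups do not overlap, with an unadjusted p under 0.05, with 1 of the 5 widest ranges or with 1 of the 3 highest FPKM values. Other pathway genes are named where their unadjusted p was under 0.05 or their groups did not overlap, up to 8 by smallest p, some of these as fold changes only. The members and lists were chosen with earlier results of these data known. Same-numbered replicates did not deviate together, so the numbers were not taken as pairs. Gene positions are from GENCODE M21 (GRCm38), and promoters from RefSeq (GRCm38.p6). A result for 1 pathway gene is not reported here.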

Additional observations from a re-analysis of the deposited data

How the results depend on the processing

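The members kept a negative median under all 14 alternatives, from -0.41 to -0.21, and the number lower in NECA ran from 24 (without NECA replicate 1) to 32. The genes past the adjusted threshold numbered 0 with edgeR, 11 with DESeq2, 30 with DESeq2 without NECA replicate 2, 2 without a filter on low counts and 1 with library weights, and the members among them 0, 1, 3, 0 and 0. Of the other pathway genes 1 passed, with DESeq2 without NECA replicate 2. A replicate block, with numbers that did not pair the libraries, left 0 genes and 0 members called, 28 members lower and a median of -0.33, and reversed Oas2 (-0.34). The groups did not overlap in 11 to 18 members, with 18 reached without NECA replicate 2. Among all genes 7.16% did not overlap and were lower in the main fit, and 6.49% were higher. Without NECA replicate 2 these shares were 12.0% and 11.4%, so counts from fits with different numbers of libraries do not compare directly. DESeq2 and library weights give no such count.

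Of the 34 members, 23 were lower in NECA under every alternative and 10 changed sign in at least 1. None of the 10 was called in any fit. Leaving out 1 library gave -1.41 to 0.81 for Oas2, -0.21 to 0.20 for Oasl1, -0.52 to 1.37 for Mx1, -0.21 to 0.032 for Ddx58, -0.70 to 0.14 for Bst2, -0.22 to 0.075 for Parp9, -0.12 to 0.25 for Parp12, -0.053 to 0.064 for Parp14, -0.17 to 0.21 for Dtx3l and -0.38 to 0.087 for Cmpk2. DESeq2 without NECA replicate 2 gave -1.41 for Oas2, -0.20 for Oasl1, -0.52 for Mx1, 0.025 for Ddx58, -0.12 for Parp12, -0.0028 for Parp14 and -0.16 for Dtx3l. Library weights gave -1.08 for Oas2, -0.10 for Oasl1, -0.17 for Mx1, -0.14 for Parp12 and -0.19 for Dtx3l. Library totals gave 0.0018 for Parp9 and 0.0079 for Cmpk2, and a mean of at least 5 CPM gave -0.013 for Parp14. The cause of these changes was not tested.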
